A study of Mus musculus with 14 samples.

Results

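The arrays described here were the 4 taken on day 3, of 14 in the series, and they asked what 1 day of vitamin C did to the transcripts of mouse embryonic fibroblasts (MEFs). MEFs are primary connective tissue cells cultured from embryos, and they were infected on day 0 with retroviruses, in 2 rounds. The SKO cultures received viruses for Sox2, Klf4 and Oct4 (encoded by Pou5f1), the factors used to turn fibroblasts into pluripotent cells, and the GFP cultures received a control virus for green fluorescent protein. All 4 cultures were moved on day 2 to the serum-containing medium of mouse embryonic stem cells with LIF, and 1 culture of each virus also received vitamin C (Vc) at 50 µg/ml. The 4 groups were therefore GFP Vc-, GFP Vc+, SKO Vc- and SKO Vc+, with 1 array each. The members were chosen by the day in the labels, and the measure was the log2 signal with vitamin C minus that without it, once in the GFP pair and once in the SKO pair, which share no array. The labels give no mouse strain, passage or number of cultures behind an array.

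Each value is the log2 signal of 1 array, so a difference of 1 is a doubling, and no condition of day 3 had a replicate. The spread used in the tests below was that of the vitamin C difference between the other 5 SKO days (days 4, 5, 6, 8 and 10), which both day 3 pairs were assumed to share, so p-values measure variation within 1 time course and not between independent cultures. In 19938 measured genes the SD of the difference was 0.35 in the GFP pair and 0.27 in the SKO pair of day 3, inside the range of 0.27 to 0.39 on the later days. Pou5f1 was at 4.06 and 4.10 in the GFP pair and at 11.19 and 11.31 in the SKO pair, as the virus labels say. Of 35 fibroblast and mesenchymal markers, 29 or 30 were above the median signal of all genes (5.50) on each of the 4 arrays.

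Vitamin C keeps the iron of the 2-oxoglutarate-dependent dioxygenases in its reduced form. This family includes the enzymes that hydroxylate collagen, the TET enzymes and Jumonji demethylases that remove methyl groups from DNA and histones, and the prolyl hydroxylases that mark hypoxia-inducible factor (HIF) for destruction. HIF, when it escapes hydroxylation, switches on genes for glycolysis, blood vessel growth and mitochondrial turnover. A separate programme, the amino acid response, is carried by the transcription factor ATF4 when cells lack amino acids or are otherwise stressed, and it raises genes for amino acid synthesis, uptake and transfer RNA charging. Interferons act through surface receptors and STAT and IRF transcription factors on a large set of antiviral genes.

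The promoters of 6 genes on which the results turn are shown first, because they hold the short core motifs by which these programmes are usually recognised. The sequences are from RefSeq (mouse build GRCm38.p6), written 5′ to 3′ on the strand of the gene, from 170 bases before the start site through the first 30 bases of the transcript. Capitals mark the amino acid response core TGATGNAA in Trib3 and Asns, the hypoxia response core ACGTG or GCGTG in P4ha1 and Bnip3, and the interferon-stimulated response core GAAANNGAA in Ifit1 and Gbp3, on either strand. Each promoter is marked for its named core only. The hypoxia core also occurs, unmarked, in the Trib3 and Asns sequences.
Trib3 (chr2:152344031-152344230, - strand): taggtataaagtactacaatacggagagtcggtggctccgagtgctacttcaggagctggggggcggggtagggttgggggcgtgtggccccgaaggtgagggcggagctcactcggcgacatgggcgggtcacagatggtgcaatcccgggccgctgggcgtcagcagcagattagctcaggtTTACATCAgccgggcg
Asns (chr6:7693180-7693379, - strand): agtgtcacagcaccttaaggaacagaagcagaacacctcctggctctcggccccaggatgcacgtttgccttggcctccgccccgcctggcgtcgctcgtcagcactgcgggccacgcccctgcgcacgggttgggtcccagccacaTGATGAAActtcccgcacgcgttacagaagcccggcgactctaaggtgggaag
P4ha1 (chr10:59323126-59323325, + strand): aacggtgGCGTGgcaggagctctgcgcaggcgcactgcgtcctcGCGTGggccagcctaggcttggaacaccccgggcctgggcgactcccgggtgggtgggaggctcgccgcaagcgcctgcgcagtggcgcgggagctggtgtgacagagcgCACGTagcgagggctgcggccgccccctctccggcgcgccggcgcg
Bnip3 (chr7:138909477-138909676, - strand): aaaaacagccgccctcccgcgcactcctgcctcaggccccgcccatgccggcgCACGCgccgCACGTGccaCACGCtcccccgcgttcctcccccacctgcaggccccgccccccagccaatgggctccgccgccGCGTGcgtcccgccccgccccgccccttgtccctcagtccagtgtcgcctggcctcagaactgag
Ifit1 (chr19:34640719-34640918, + strand): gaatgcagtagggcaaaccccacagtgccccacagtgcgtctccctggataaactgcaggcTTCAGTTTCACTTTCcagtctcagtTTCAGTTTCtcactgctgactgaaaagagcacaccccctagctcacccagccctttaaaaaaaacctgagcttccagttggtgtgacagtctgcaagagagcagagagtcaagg
Gbp3 (chr3:142559874-142560073, + strand): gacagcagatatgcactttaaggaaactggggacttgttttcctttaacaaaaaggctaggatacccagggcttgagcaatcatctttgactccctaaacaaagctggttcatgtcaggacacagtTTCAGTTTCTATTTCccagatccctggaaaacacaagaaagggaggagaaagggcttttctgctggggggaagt
In Asns the match began 23 bases before the start site and in Trib3 14 bases after it. A match describes the letters only and says nothing on whether a factor was bound. Matches on opposite strands can overlap, as in the CACGTG of Bnip3, and neighbouring interferon cores can run together, as in Ifit1 and Gbp3.

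Among transcripts lower with vitamin C in both pairs, amino acid stress genes were the largest listed group. The gene lists used here and below were written with earlier results of these data known, so overlaps with them are a description. Among 9726 genes above the median signal in both pairs, 30 were lower by at least 1.5-fold in both (0.308%). Of these 30, 14 belong to a list of amino acid stress and serine-folate genes, which holds 45 of the 19938 measured genes. Of the 45, 42 were above the median on the GFP array without vitamin C and 41 on the SKO array without it. The list is therefore a larger share of the 9726 genes than of all genes. Over all genes, whatever their signal, 45 were lower in both pairs (0.226%) and 55 were higher in both (0.276%). After quantile normalization of the arrays these counts were 56 and 37, and after median centring 54 and 46, so the balance of the 2 directions depends on the scaling. For the mean difference of both pairs, limma called 4 genes lower at an adjusted p under 0.05 (0.0201% of genes) and 0 higher (0%), with 1352 genes at an unadjusted p under 0.05. All 4, Trib3, Asns, Aldh1l2 and Mthfd2, were of the amino acid list. In cultures, fewer cells of a type and less RNA per cell cannot be told apart.

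Trib3, a pseudokinase that is induced by ATF4, was at 8.12 without and 5.51 with vitamin C in the GFP pair and at 6.70 and 5.20 in the SKO pair. Its differences were -2.61 and -1.51, with a mean of -2.06 ± 0.20 (SE, adjusted p = 0.00913, limma), or 4.17-fold. This SE and every SE below come from the spread over the later SKO days, not from the spread between the 2 pairs. Both vitamin C arrays lay below both arrays without it. Asns, which makes asparagine, went from 10.32 to 8.25 in the GFP pair and from 10.31 to 9.33 in the SKO pair (mean difference -1.53 ± 0.18; adjusted p = 0.0253, limma). Its untreated levels were nearly the same in the 2 viruses, and the GFP array with vitamin C was the lowest. Aldh1l2, the mitochondrial enzyme that oxidises formyl-tetrahydrofolate, went from 8.33 to 5.96 and from 7.40 to 5.39 (mean difference -2.19 ± 0.27; adjusted p = 0.0354, limma). Mthfd2, which acts in the same mitochondrial folate pathway, went from 8.16 to 6.59 and from 7.96 to 7.19 (mean difference -1.17 ± 0.15; adjusted p = 0.039, limma). Trib3 kept its call in all 13 alternative analyses of this test (adjusted p 0.000401 to 0.0294). Asns lost it without day 6 (range 0.000747 to 0.0623), Aldh1l2 after quantile normalization and without day 6 or day 8 (1.86e-05 to 0.0888), and Mthfd2 after quantile normalization and without any 1 of the 5 later days (0.00757 to 0.108).

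The other 10 of the 14 genes did not pass the test, and in each of them both arrays with vitamin C lay below both without it. Among the transcription factors, Ddit3 (also called CHOP) was at 7.75 and 6.00 in the GFP pair and at 6.89 and 5.71 in the SKO pair (adjusted p = 0.0913, limma), and Atf5 was at 8.86 and 7.58 and at 7.80 and 6.84 (adjusted p = 0.0759, limma). Atf4 itself differed by -0.53 and -0.36. Among the transporters, Slc7a3, a carrier of cationic amino acids, was at 6.80 and 4.88 and at 6.78 and 5.68. Slc7a5, the large neutral amino acid carrier, was at 10.45 and 8.54 and at 8.79 and 8.15, and Slc6a9, a glycine carrier, differed by -1.26 and -0.81. Of the enzymes, Psat1 of serine synthesis differed by -1.06 and -0.69, Chac1, which degrades glutathione, by -1.14 and -0.74, and the cysteinyl-tRNA synthetase gene Cars by -1.07 and -0.62. Vldlr, a lipoprotein receptor of the list, differed by -1.16 and -0.88, and Lonp1, a mitochondrial protease, by -0.90 and -0.65. Slc38a2 and Slc1a5, which are also amino acid carriers, were level, at -0.01 and -0.06 and at -0.01 and -0.05.

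**Figure D1:**
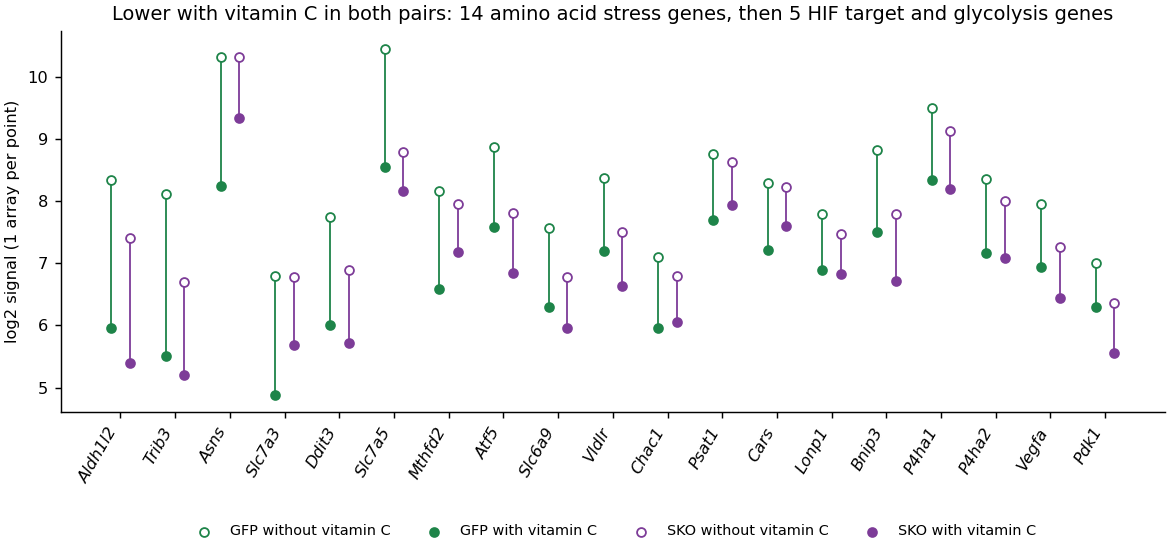
Log2 signal of the 19 genes of the amino acid, HIF target and glycolysis lists that were above the median signal and lower by at least 1.5-fold with vitamin C in both pairs; each point is 1 array, open without and filled with vitamin C, green for GFP and purple for SKO, and a line joins the arrays of a pair. Every filled point lies below its open partner, as the choice of genes fixes, and for the 14 amino acid genes the GFP difference is the larger one.

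Of the 45 measured members of the amino acid list, 30 were lower past 1.5-fold in the GFP pair, where 3.36% of all genes were, and 15 in the SKO pair, where 1.61% were; 0 were higher in either. The median of the list was -0.75 in the GFP pair and -0.40 in the SKO pair, against 0.01 and 0.01 over all genes. By sign alone 39 of 45 members (86.7%) were lower in both pairs, against 25.6% of all genes. The difference was further below 0 in the GFP pair for 36 of the 45. The members include Cth (cystathionine gamma-lyase), at 6.50 and 4.97 in the GFP pair and 7.61 and 7.70 in the SKO pair, and Slc7a11, the cystine carrier, at 5.47 and 4.01 and at 5.07 and 5.03. TGATGNAA was found in 6 of the 23 promoters of the 30 shared lower genes, in 11 of 36 of the list, and in 3.62% of the 15614 measured genes with a promoter window of 300 bases.

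**Figure D2:**
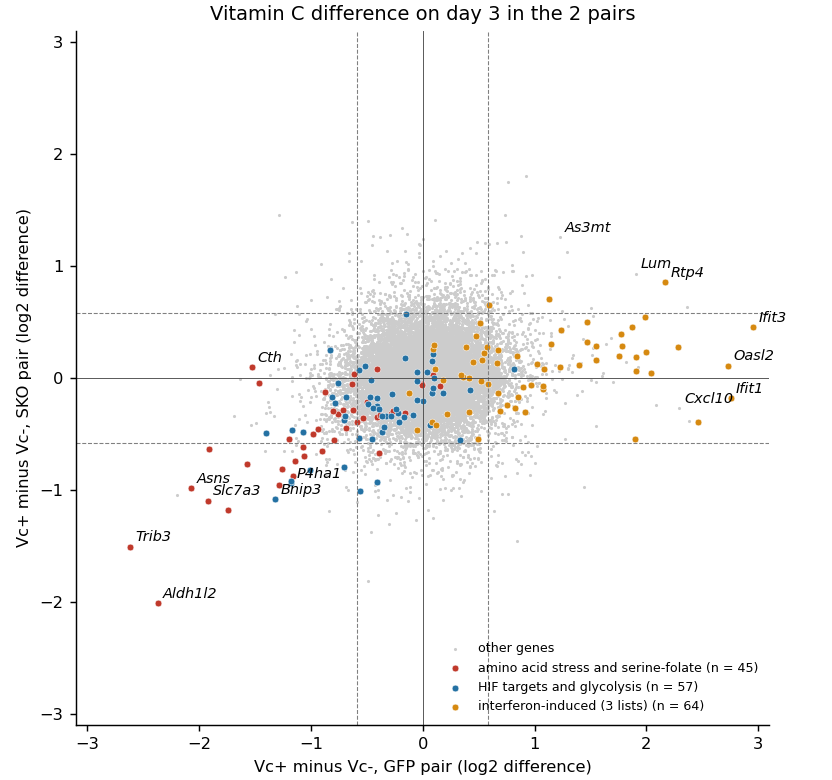
Vitamin C difference (log2, Vc+ minus Vc-) in the GFP pair on the x axis and in the SKO pair on the y axis, 1 point per gene (n = 19938), with dashed lines at 1.5-fold; colours mark 3 groups of listed genes. The amino acid genes extend to the lower left, with Aldh1l2 and Trib3 at its end, and the interferon-induced genes extend to the right along a y value near 0.

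HIF target genes were also lower in both pairs. P4ha1, the catalytic subunit of collagen prolyl 4-hydroxylase and a HIF target, was at 9.50 and 8.33 in the GFP pair and at 9.13 and 8.19 in the SKO pair. Its mean difference was -1.06 ± 0.20 (adjusted p = 0.17, limma). P4ha2, the second such subunit, was at 8.34 and 7.17 and at 8.00 and 7.08 (mean difference -1.05 ± 0.17; adjusted p = 0.125, limma). Bnip3, which marks mitochondria for autophagy, was at 8.82 and 7.50 and at 7.80 and 6.71, and its second probe gave -0.81 and -0.93. Vegfa, the blood vessel growth factor, was at 7.94 and 6.93 and at 7.25 and 6.43. Pdk1, which holds pyruvate back from mitochondria, differed by -0.70 and -0.80. These 5 are the HIF and glycolysis list genes above the median and lower by at least 1.5-fold in both pairs, so that choice fixes their shared direction. Their differences ran from 1.63-fold to 2.49-fold, and none of the 5 passed the test of the mean difference.

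Of 35 HIF targets outside glycolysis, 11 (31.4%) were lower past 1.5-fold in the GFP pair, against 3.36% of all genes, and 5 (14.3%) in the SKO pair, against 1.61%, and 0 were higher in either. The medians were -0.36 and -0.27, and 24 of the 35 (68.6%) were lower in both pairs by sign, against 25.6% of all genes. The list of contractile and TGF-beta target genes had a like share by sign, 24 of 36 (66.7%), with medians of -0.10 and -0.19, and 2 of them were lower past 1.5-fold in the GFP pair and 1 in the SKO pair. Ero1a, an oxidase of the endoplasmic reticulum, differed by -1.40 in the GFP pair and -0.49 in the SKO pair. Egln3 and Egln1, 2 of the HIF prolyl hydroxylase genes and HIF targets themselves, differed by -0.81 and -0.69 in the GFP pair and by -0.17 each in the SKO pair. Adm, Bhlhe40 and Cited2, which are also on the list, differed by between -0.13 and 0.18. Of 22 glycolysis genes, 4 (18.2%) were lower and 1 (4.5%) higher past 1.5-fold in the GFP pair, against 3.36% and 4.26% of all genes. In the SKO pair 2 (9.1%) were lower, against 1.61%. The glucose carrier Slc2a1 differed by -1.07 and -0.48, the lactate carrier Slc16a3 by -1.17 and -0.46, and phosphofructokinase Pfkl by -0.56 and -1.01. The hypoxia core was found in 27 of the 27 HIF targets with a promoter window, and in 55.3% of all genes with one. It was also in 30 of 36 promoters of the amino acid list (83.3%) and in 10 of 26 of the antiviral effectors (38.5%). Among the 30 shared lower genes it was in 16 of 23 promoters (69.6%). The core is thus not particular to the HIF targets.

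Other genes lower in both pairs belonged to neither group. Phyhd1, a member of the 2-oxoglutarate dioxygenase family, was at 7.18 and 6.32 in the GFP pair and at 6.48 and 5.60 in the SKO pair. Slc40a1, the iron exporter ferroportin, differed by -0.77 in each. Close to the 1.5-fold limit, Eif3c (-0.86 and -0.61) and Itga11 (-0.61 and -0.75) were just inside, and Rhbdd1 (-0.85 and -0.58) and Narf (-0.60 and -0.57) just outside. Of the 30 shared lower genes above the median, 11 were in none of the amino acid, HIF and glycolysis lists.

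Few well-measured genes were higher in both pairs. Above the median signal in both pairs there were 9 (0.0925%), and none passed the test of the mean difference. As3mt, the methyltransferase of arsenic, had nearly the same difference in both, from 5.23 to 6.46 in the GFP pair and from 5.37 to 6.63 in the SKO pair (mean difference 1.24 ± 0.19; adjusted p = 0.113, limma). In 3 of 13 alternative analyses As3mt passed the test (limma, adjusted p 0.00678 to 0.22 over the 13). Lum, a small proteoglycan of the collagen matrix, was at 8.15 and 10.06 and at 6.73 and 7.66 (mean difference 1.42 ± 0.27; adjusted p = 0.17, limma). Rtp4, an interferon-induced chaperone of receptors, was at 6.39 and 8.56 and at 4.94 and 5.80. The others were C1ra, a protease of the first complement component (0.92 and 0.91), Agtr2, an angiotensin receptor (0.80 and 1.01), Pcbd1, which recycles tetrahydrobiopterin (0.80 and 0.78), Lbp, which binds bacterial lipopolysaccharide (0.72 and 0.95), Mdk, the growth factor midkine (1.25 and 0.60), and Sowahb (0.68 and 0.80). Mdk and Sowahb were nearest to the limit from inside, and Steap4 (0.58 and 0.59) and Parp12 (0.98 and 0.58) lay just outside it.

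Opposite differences of 1.5-fold or more were found in 27 genes that were higher in GFP and lower in SKO (0.135%) and in 22 with the reverse (0.11%). Above the median these were 2 (0.0206%) and 3 (0.0308%) genes. They were named after their values were seen. Psmb9, a subunit of the immunoproteasome, differed by 0.92 in the GFP pair and -0.69 in the SKO pair, and Spcs1, of the signal peptidase, by 0.88 and -0.66. Cdc6, which licenses replication origins, differed by -0.75 and 0.62, Usp1, a deubiquitinase of DNA repair, by -0.78 and 0.61, and Foxd1, a forkhead factor, by -0.60 and 0.62. Across all genes the 2 pairs' differences correlated weakly (Pearson r = 0.122, Spearman rho = 0.109, n = 19938 genes), and over the 9726 genes above the median in both pairs Pearson r was 0.206. The genes are not independent and were read from the same 4 arrays, so these values are a description.

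Differences between the pairs were tested gene by gene. For the GFP difference minus the SKO difference limma called 0 genes higher and 0 lower (0% each), with 917 genes at an unadjusted p under 0.05. The smallest adjusted p was 0.131, for Cxcl10. So no gene below is shown to respond in 1 virus alone, and what follows describes sizes. Past 1.5-fold, 849 genes were higher (4.26%) and 670 lower (3.36%) in the GFP pair, or 740 and 729 after quantile normalization and 717 and 778 after median centring. In the SKO pair 516 were higher (2.59%) and 321 lower (1.61%), or 423 and 398 after quantile normalization. Of these, 526 higher (2.64%) and 407 lower (2.04%) genes of the GFP pair differed by under 1.2-fold in the SKO pair, and 251 higher (1.26%) and 132 lower (0.662%) genes of the SKO pair by under 1.2-fold in the GFP pair. As a gauge of noise, among 1231 olfactory, vomeronasal and taste receptor genes, which fibroblasts hardly use, 7.8% were past 1.5-fold in the GFP pair and 10.6% in the SKO pair, in either direction. Of all 19938 genes, 1519 were past it in the GFP pair and 837 in the SKO pair. The receptor share was thus no smaller than that of all genes in either pair, so the counts over all genes do not exceed this gauge.

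Most genes on the interferon lists were higher with vitamin C in the GFP pair, and few of them were past 1.5-fold in the SKO pair. Of 64 genes on 3 interferon lists, 42 (65.6%) were higher past 1.5-fold in the GFP pair, where 4.26% of all genes were. In the SKO pair 3 (4.69%) were higher, where 2.59% of all genes were, and 0 were lower in either pair. The median difference was 0.88 in the GFP pair and 0.11 in the SKO pair, and the GFP difference was the larger for 61 of 64 genes (95.3%), against 49.4% of all genes. None of the 64 passed the test of the difference between pairs, and 18 had an unadjusted p under 0.05, beside 4.6% of all genes. The median SE of that contrast was 0.51 for these genes and 0.36 for all genes. It counts as spread any change of the vitamin C difference between the later SKO days.

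Among the antiviral effectors, Ifit1, which binds foreign RNA ends, was at 5.95 without and 8.70 with vitamin C in the GFP pair and at 4.60 and 4.42 in the SKO pair. The 2.75 between the GFP arrays is 6.74-fold, and the GFP minus SKO difference was 2.94 ± 0.97 (SE, adjusted p = 0.999, limma). The SE counts as spread the change over the later SKO days, where the vitamin C difference of Ifit1 ran from 0.52 to 3.34. Oasl2, of the oligoadenylate synthetase family, was at 5.57 and 8.29 in the GFP pair and at 4.89 and 5.00 in the SKO pair. Ifit3 was at 5.53 and 8.48 and at 4.53 and 4.99. In each of these 3 genes the GFP array with vitamin C stood above the other 3 arrays, and the untreated GFP array lay above both SKO arrays. Xaf1 (1.76 and 0.19), Parp14 (1.90 and 0.06), Bst2 or tetherin (1.55 and 0.16) and Mx2 (1.77 and 0.39) differed by similar sizes. The 3 listed genes past 1.5-fold in both pairs were Rtp4, Rsad2 or viperin (1.13 and 0.71) and Slfn9 (0.60 and 0.65). Outside the lists, and named after their values were seen, the related genes Gbp9 (1.29 and 1.12), Ifi207 (0.98 and 0.92) and Ifit3b (2.37 and 0.64) were also past 1.5-fold in both, from low signals in the SKO pair. Oas1a (-0.05 and -0.46) and Epsti1 (0.08 and -0.39) were not higher in either. In all 21 of 33 effectors (63.6%) were higher past 1.5-fold in the GFP pair and 3 (9.09%) in the SKO pair, against 4.26% and 2.59% of all genes.

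Among sensors and transcription factors 13 of 23 (56.5%) were higher past 1.5-fold in the GFP pair and 0 in the SKO pair. Of all genes, 4.26% were higher past 1.5-fold in the GFP pair and 2.59% in the SKO pair. Irf7, the factor that amplifies the interferon response, was at 5.71 and 7.75 in the GFP pair and at 4.94 and 4.99 in the SKO pair. Stat2, which carries the interferon signal to the nucleus, was at 7.91 and 9.13 and at 7.07 and 7.16. Usp18, which restrains the receptor, differed by 1.90 and 0.19, and the RNA sensor gene Ifih1 (MDA5) by 1.47 and 0.32. Irf3 and Cgas, a factor and a DNA sensor upstream of interferon, differed by 0.11 and 0.08 and by -0.12 and -0.13. All 8 measured genes on the list of interferon-induced GTPases and Ifi200 genes were higher past 1.5-fold in the GFP pair and 0 in the SKO pair, among them Gbp3 (4.95 and 6.94 against 4.63 and 4.86) and Iigp1 (4.08 and 6.36 against 2.64 and 2.91). Of 16 antigen presentation genes of MHC class I, 6 (37.5%) were higher in the GFP pair, with Psmb8 at 1.27 and Psmb10 at 1.14, and 0 in the SKO pair. The interferon core was found in 14 of the 26 antiviral effectors with a promoter window and in 9.2% of all genes with one.

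**Figure D3:**
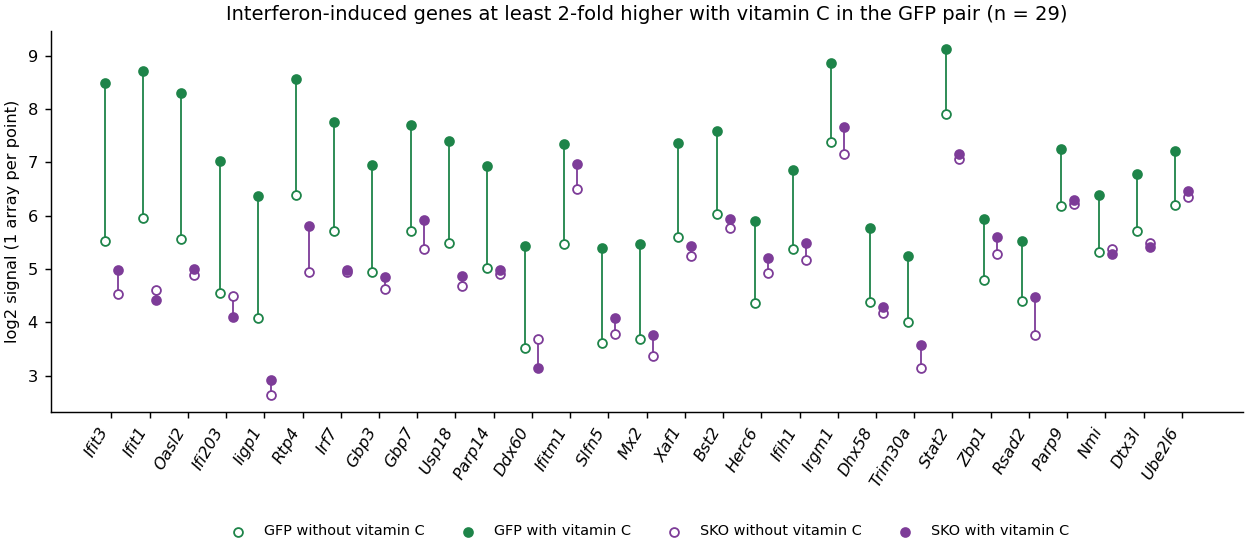
Log2 signal of the 29 genes of the 3 interferon lists that were at least 2-fold higher with vitamin C in the GFP pair; each point is 1 array, open without and filled with vitamin C, green for GFP and purple for SKO. The filled green point is the upper one in every gene shown, as the choice of genes fixes, while the purple pairs lie close together.

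The interferon ligand genes were mostly of low signal and not higher past 1.5-fold in the GFP pair, and their receptors were level. This group of ligand and receptor genes was looked at after the values were seen. Of 16 measured ligand genes, 0 were higher past 1.5-fold in the GFP pair and 1 was lower, Ifna14 (5.78 and 4.47). Of all genes, 4.26% were higher and 3.36% lower there. In the SKO pair 2 were higher and 1 lower, where 2.59% and 1.61% of all genes were. Counts this small among 16 genes are too few to set against these shares. Ifnb1 was at 4.27 and 3.97 in the GFP pair and at 3.76 and 3.87 in the SKO pair, and only 4 of the 16 were above the median signal on any of the 4 arrays. The 5 receptor chains differed by between -0.23 and 0.18 in either pair. Macrophage markers were low on all 4 arrays. Of 21 markers 3 and 5 were above the median in the GFP pair and 2 and 4 in the SKO pair, and the mean level was 4.71 and 4.97 and 4.51 and 4.63. Past 1.5-fold, 4 (19.1%) were higher in the GFP pair, where 4.26% of all genes were, and 2 (9.52%) were higher and 1 lower in the SKO pair, where 2.59% and 1.61% were. By sign 13 of the 21 (61.9%) were higher in both pairs, against 28.6% of all genes. Lyz2 was higher in both, at 5.44 and 6.23 and at 4.69 and 5.33. Ptprc was at 3.85 and 4.06 and at 3.63 and 3.68, and Csf1r at 4.82 and 5.12 and at 4.47 and 4.52. The part of such cells in the result was not tested.

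Sterol and fatty acid genes were also higher with vitamin C mainly in the GFP pair. Of 29 measured, 13 (44.8%) were higher past 1.5-fold in the GFP pair, where 4.26% of all genes were. In the SKO pair 0 were, where 2.59% of all genes were. The medians were 0.55 and 0.11, and the GFP difference was the larger for 26 of 29 (89.7%), against 49.4% of all genes. By sign, 23 of 29 were higher in both pairs, against 28.6% of all genes. Mvd, of the mevalonate pathway, was at 6.96 and 8.39 in the GFP pair and at 7.25 and 7.60 in the SKO pair. Insig1, the sterol-responsive retention protein, was at 9.45 and 10.48 and at 10.14 and 10.37, and lanosterol synthase Lss was at 7.20 and 8.15 and at 8.11 and 8.12. In Insig1 and Lss the GFP culture without vitamin C was the low array of the 4.

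In the GFP pair alone, with the spread borrowed from the later SKO days, limma called 4 genes higher (0.0201%) and 3 lower (0.015%). Trib3, Asns and Mthfd2 were the 3 lower genes. Cxcl10, an interferon-induced chemokine, was at 4.47 and 6.76 in the GFP pair and at 4.44 and 4.18 in the SKO pair (difference in GFP 2.29 ± 0.23, SE; adjusted p = 0.0124, limma), so 1 array stood apart from the other 3. Aldh1l1, the cytosolic relative of Aldh1l2, was at 5.34 and 7.27 and at 5.18 and 5.27, in the opposite direction to Aldh1l2. Ibsp, a bone matrix protein, was at 3.57 and 5.27 and at 3.31 and 3.28. Ifitm1, a membrane antiviral protein, was at 5.48 and 7.35 and at 6.51 and 6.96, and its second probe gave 1.06 and -0.20. The adjusted p was 0.0372 for each of Aldh1l1, Ibsp and Ifitm1 (limma). Cxcl10 and Trib3 kept the call in all 11 and 12 alternatives that could be run for them, with adjusted p up to 0.0385. Each of the other 5 lost it without day 6 and without day 10, and reached up to 0.183 for Ifitm1 and between 0.0631 and 0.0961 for the rest.

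Other genes named by size in the GFP pair were of mixed function. Dpt, dermatopontin of the matrix, was at 6.30 and 8.12 in the GFP pair and at 4.36 and 4.50 in the SKO pair. Aqp1, a water channel, was at 6.36 and 7.91 and at 7.52 and 7.49, and Plac8 at 4.94 and 7.02 and at 5.09 and 4.85. Lower in the GFP pair were Cth and the protocadherin gene Pcdh11x (5.75 and 4.11 against 5.72 and 5.70). Xpot, the tRNA exporter, was at 9.17 and 8.00 against 8.60 and 8.61. Siah1a (-1.12 and 0.10), a ubiquitin ligase, and Hmgb1 (-1.09 and 0.03), a chromatin protein, were further examples. Trrap (-1.29 and 0.08) and Spred2 (-1.24 and 0.09) were named by the same rule, but their second probes differed by -0.23 and -0.13 in the GFP pair. The transferrin receptor gene Tfrc, singled out after its values were seen, was at 7.10 and 5.70 against 8.15 and 7.83.

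In the SKO pair alone limma called 0 genes higher and 0 lower (0%), with 782 genes at an unadjusted p under 0.05 and a smallest adjusted p of 0.886. Akr1c18, which degrades progesterone, was at 8.87 and 10.28 in the SKO pair and at 3.69 and 3.80 in the GFP pair, where it was below the median. Strip2 was at 5.49 and 6.69 against 3.40 and 3.37, and Aspa, which cleaves N-acetylaspartate, at 5.12 and 6.05 against 3.22 and 3.16, so both were likewise below the median in the GFP pair. Sbspon was at 7.27 and 8.40 against 5.67 and 5.88, and Cdkn2c, a CDK inhibitor of the listed cell cycle genes, at 5.68 and 6.94 against 5.39 and 5.00. Lower in the SKO pair were Rcn3, a calcium-binding protein of the secretory pathway (8.99 and 8.32 against 8.98 and 9.01), Ogn, a small proteoglycan (7.74 and 6.97 against 9.96 and 9.77), and Pde8a, a phosphodiesterase (7.69 and 7.07 against 7.19 and 7.22). The pluripotency factor Zfp296 was at 5.50 and 4.85 against 5.00 and 5.20.

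Mitosis genes leaned in opposite directions in the pairs by small amounts, and replication genes leaned higher mainly in the SKO pair. The median of 39 mitosis genes was -0.24 in the GFP pair and 0.21 in the SKO pair. The GFP difference was the lower one for 39 of the 39, against 50.6% of all genes. The median of 39 replication genes was -0.05 and 0.31, and the GFP difference was the lower one for 34 of them (87.2%). By sign 15 of these 39 (38.5%) were higher in both pairs, against 28.6% of all genes, and 0 were lower in both, against 25.6%. Past 1.5-fold, 3 mitosis genes (7.69%) and 1 replication gene (2.56%) were lower in the GFP pair, where 3.36% of all genes were. In the SKO pair 1 replication gene (2.56%) was higher, where 2.59% of all genes were. The mitotic checkpoint kinase gene Bub1 was at 6.63 and 5.75 in the GFP pair and at 7.76 and 8.08 in the SKO pair, and the spindle motor gene Kif11 at 6.65 and 6.20 and at 7.60 and 8.14. Both genes were higher on the SKO arrays than on the GFP arrays. No gene of these lists passed a test.

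Among the enzymes that use vitamin C, P4ha1, P4ha2 and Phyhd1, described above, were lower past 1.5-fold in both pairs. Over all genes, 4.26% were higher and 3.36% lower past 1.5-fold in the GFP pair, and 2.59% and 1.61% in the SKO pair. Of 40 dioxygenases of chromatin, nucleic acids and HIF, 2 (5.0%) were lower past 1.5-fold in the GFP pair (Egln1 and Egln3). In the SKO pair 0 were, and the medians were -0.19 and -0.05. Kdm6b, a histone H3 lysine 27 demethylase gene, differed by -0.56 and -0.53. Tet2 differed by -0.03 and -0.09, and Tet1 and Tet3 by -0.28 to -0.11, with second probes of either sign. Of 21 vitamin C transport and recycling genes, 2 (9.52%) were higher and 1 (4.76%) lower in the GFP pair. The lower one was Slc2a1, and 0 were past 1.5-fold in the SKO pair. The sodium-dependent vitamin C carriers Slc23a2 and Slc23a1 differed by -0.35 and -0.23 in the GFP pair and by -0.11 and -0.07 in the SKO pair. Of 38 collagen and other matrix genes, 3 (7.9%) were higher and 2 (5.26%) lower in the GFP pair, and Col1a1 differed by 0.17 and -0.03. Of 41 pluripotency genes 3 (7.32%) were higher in the GFP pair. In the SKO pair 1 (2.44%) was higher and 1 (2.44%) lower, and the medians were 0.09 and 0.05. Nanog was at 5.32 to 5.40 on all 4 arrays. Kng2 of the kininogen cluster differed by 0.37 and 0.49 on day 3 and by up to 2.54 on the later SKO days.

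**Figure D4:**
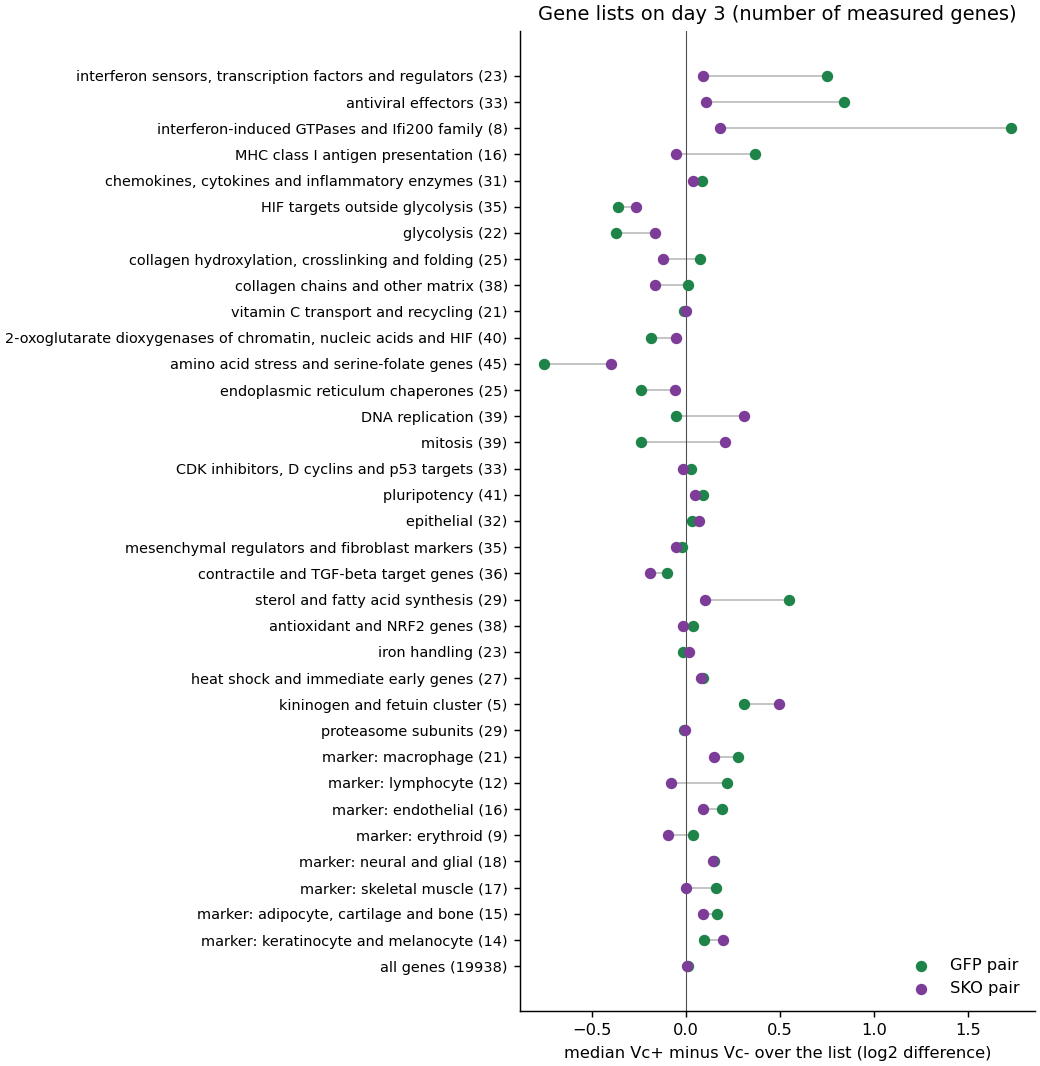
Median vitamin C difference (log2) of each gene list in the GFP pair (green) and in the SKO pair (purple) of day 3, with the number of measured genes in brackets; a grey line joins the pairs. The amino acid list lies at -0.75 and -0.40, the interferon lists lie far apart (0.75 to 1.73 in GFP, 0.09 to 0.18 in SKO), and most other lists lie within 0.3 of 0.

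On the 5 later SKO days, whose arrays are not those of day 3, 16 of the 30 shared lower genes were lower on every day (53.3%), against 5.37% of all genes, and 6 of the 9 shared higher genes were higher on every day (66.7%), against 5.87%. For days 4, 5, 6, 8 and 10 in turn, the median of the 30 was -0.58, -0.36, -0.19, -0.26 and -0.24. The amino acid list, at -0.40 in the SKO pair of day 3, had medians of -0.26, -0.15, -0.16, -0.06 and -0.10. Past 1.5-fold, the numbers of the 45 amino acid genes lower were 9, 2, 2, 5 and 3, where 1.83%, 1.7%, 3.85%, 5.22% and 2.87% of all genes were. On day 6 the share was thus close to that of all genes. Slc7a3 did not hold, with a difference between -0.35 and 1.36 on the later days. P4ha1 did, at -1.39 to -0.60, and As3mt, at 0.93 to 1.76. Bnip3 was at -0.93 to 0.02. For the 5 days in turn, the HIF targets outside glycolysis had medians of -0.25, -0.14, -0.05, -0.13 and -0.01. Their median in the SKO pair of day 3 was -0.27. The day 3 difference in SKO cells minus that on days 4 to 10 was past the test for 0 genes in either direction (limma; 829 at an unadjusted p under 0.05, smallest adjusted p 0.989).

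The interferon genes were higher with vitamin C in SKO cells on later days. Of the 64 genes, the numbers higher past 1.5-fold on days 4, 5, 6, 8 and 10 were 9, 34, 44, 45 and 39, where 3.51%, 2.22%, 3.76%, 5.32% and 4.11% of all genes were, with medians of 0.28, 0.63, 0.91, 1.37 and 0.74. The median in the GFP pair on day 3, 0.88, lies between those of SKO days 5 and 6. Ifit1, at -0.18 in the SKO pair of day 3, differed by 0.52 to 3.34 on the later days, and Irf7, at 0.05, by 0.54 to 2.11. Cxcl10 differed by 0.17 to 0.53 there. Aqp1, at 1.55 in the GFP pair, stayed between -0.17 and 0.37 in SKO cells on the later days.

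**Figure D5:**
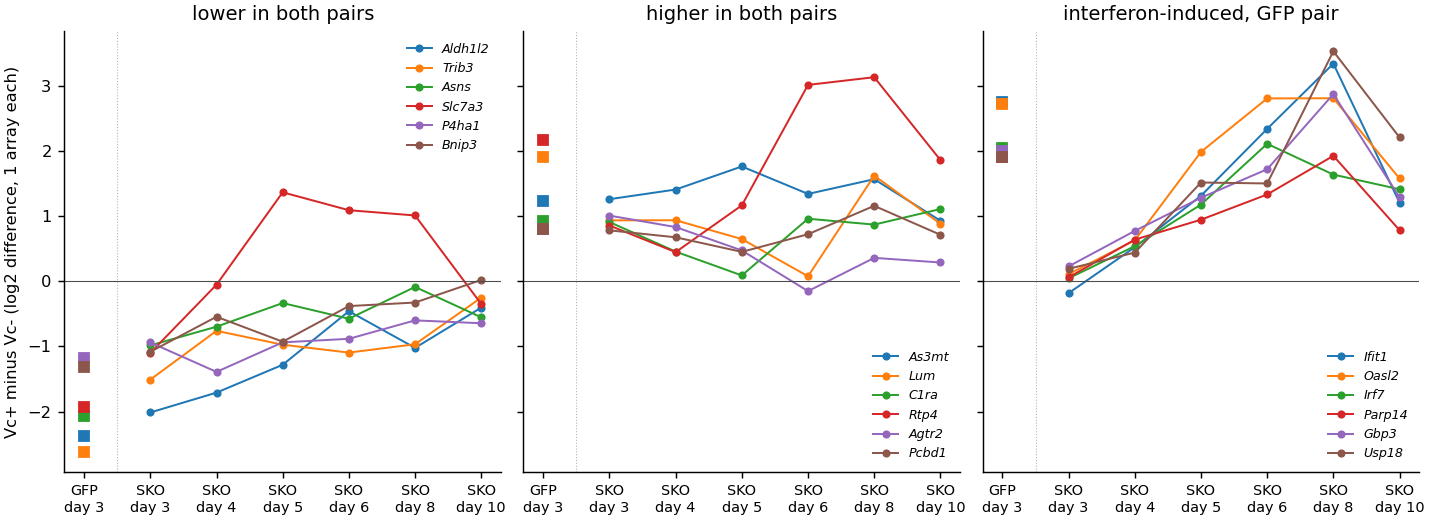
Vitamin C difference (log2, 1 array minus 1 array) of 18 named genes in the GFP pair of day 3 (squares) and in SKO cells from day 3 to day 10 (joined circles), in 3 panels for genes lower in both pairs, genes higher in both pairs, and interferon-induced genes named in the GFP pair. All 6 lower genes lie nearer to 0 on day 10 than on SKO day 3, with Slc7a3 above 0 in between. The interferon-induced genes shown were chosen as under 1.2-fold in the SKO pair of day 3, which fixes their start near 0. At their highest these interferon-induced genes reach 1.92 to 3.53.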

How the data were processed

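RNA was hybridised to Affymetrix whole-transcript arrays, 1 array per virus, treatment and day. The authors deposited log2 values normalized with RMA in Partek, per the submitters' processing notes, which name no version or setting. RMA makes the arrays' distributions alike, so a change shared by most genes cannot be seen. Of 28853 probe sets, 21789 had 1 gene symbol. Where a gene had several, the one with the highest mean signal was used, which left 19938 genes. limma (version 3.58.1) was fitted to all 14 arrays with each virus and day as a block and vitamin C terms for GFP day 3, SKO day 3 and SKO days 4 to 10, leaving 4 residual degrees of freedom. P-values were adjusted by Benjamini-Hochberg over all genes, with a threshold of 0.05. The procedure was also run on simulated data in which a gene had the same spread in every pair. That run could not check whether the day 3 pairs share the spread of the later days. Past 1.5-fold is a description without a test. The genes named by rule were up to 12 per direction and class with the largest differences, whose higher array lay above the median signal in the pair or pairs concerned; genes with clone or predicted names, receptor families, histones and small RNAs were left out. Added were a short set of fixed genes and members of 34 lists; list members named to show a range were picked after their values were seen. Members and lists were chosen with earlier results of these data known. Alternatives changed the scaling, the filter, the probe choice, the variance model and the days used. The number of arrays limits the precision.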

Additional observations from a re-analysis of the deposited data

How the results depend on the processing

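For the mean difference of both pairs, 4 genes were lower and 0 higher. The genes higher became 2 without the 6646 genes of lowest signal, 6 with an intensity trend and 12 with the day 3 arrays only. The genes lower became 2 after quantile normalization, 19 with the trend, 7 with a line over days 4 to 10 and 15 with the day 3 arrays only, and 1 to 4 when single later days were left out. In the GFP pair the 4 higher genes became 15 with the trend and 1 to 8 without single days. The 3 lower genes there became 17 with the trend, 5 with the line and 1 to 5 without single days. The tests of GFP minus SKO, of the SKO pair and of day 3 against later days gave 0 genes under every alternative run. With a 2-fold limit the counts were 2 higher and 6 lower in both pairs, 0 and 1 in opposite directions, 116 higher and 83 lower in GFP, 48 and 33 in SKO, 66 and 32 in GFP alone, and 17 and 9 in SKO alone. Without those 6646 genes they were 21 higher in both, 4 and 10 opposite, 459 higher in GFP, 180 and 130 in SKO, 311 higher in GFP alone, and 84 and 43 in SKO alone. For genes above the median in both pairs, an alternative chosen after seeing the data, they were 9 higher in both, 2 and 3 opposite, 281 and 435 in GFP, 72 and 73 in SKO, 200 higher in GFP alone, and 34 and 13 in SKO alone. The low-signal genes and the stricter limit change the counts by construction; for the other settings the cause was not tested. No called gene changed direction under the alternatives run. The Tet1 difference in the GFP pair, not called, went from -0.28 to 0.07 with the mean of all probes. The excess of higher over lower genes in both pairs together and in the GFP pair turned round after median centring. With 1 array per condition on day 3, variation between cultures could not be measured.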
